A study of Mus musculus with 12 samples.

Results

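The 10 genes described here, Csf1r, Cx3cr1, Adgre1, C1qa, C1qb, C1qc, Mrc1, Trem2, Cd68 and Lyz2, mark resident macrophages or encode the recognition unit of complement, and were followed across the mouse cochlea. They were taken by name, 10 of the 37432 genes listed, and all 10 passed the filter on low values that 16215 genes passed. The cochleae came from male mice at P14, either wild-type or Gjb2 35delG homozygous (Gjb2 35delG/35delG), and were cut into an apical, a middle and a basal turn, with 2 libraries for each genotype and turn, 12 in all. The homozygous males were derived from embryonic stem cells through tetraploid complementation on an almost C57BL/6J background, were delivered by cesarean section and were nursed by ICR females, whereas the wild-type males were bought from a supplier, so genotype and the origin of the mice cannot be told apart. Gjb2 encodes connexin 26, the gap junction protein of cochlear supporting cells. How many animals went into a library is not given in the sources used here, so the p-values measure the spread between these libraries.

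Macrophages settle in the cochlea before birth and live in the spiral ligament, the stria vascularis, the spiral ganglion and the bony wall. They depend on signals through the receptor CSF1R, whose ligands are CSF1 and IL-34, and they clear debris through scavenger and lipid-sensing receptors and degrade it in lysosomes. C1q is the protein that starts the classical complement pathway. It is built from A, B and C chains, each from its own gene, and in most tissues macrophages are its main source.

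Levels are given as FPKM divided by a scaling factor per library, which corrects for gene length and allows genes to be compared with each other. Log2 differences are homozygous minus wild-type, or one turn minus another, of log2(scaled FPKM + 1), which understates the change of low genes. A gene was called when its limma p-value, adjusted after Benjamini and Hochberg over all genes tested, was under 0.01 and its fold over 2. Sequencing depth is unknown because the values are not counts.

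Gjb2 itself was at 140 to 434 scaled FPKM in the wild-type libraries and at 58.6 to 451 in the homozygous ones. By qPCR, normalized to Gapdh, the study reported less Gjb2 RNA in the homozygous cochlea at P14. Here the median over the separate turns was not lower, at 294 in the homozygous and 255 in the wild-type libraries. The tissue pieces and the normalization differ from those of the qPCR, so this is not a repeat of it. The homozygous basal pair was lower, at 126 and 58.6 against 434 and 256. A deletion of a single base need not remove the transcript, so this does not check the genotype labels. The libraries differed in tissue content. Wild-type basal repeat 2 and homozygous middle repeat 1 stood apart: their summed neutrophil markers were 2055 and 6403 scaled FPKM, against 35.9 to 504 in the other 10 libraries, and their summed osteoblast markers were 2773 and 2384, against 48.4 to 939. Neuron markers summed to 9.30 scaled FPKM in wild-type basal repeat 1 and to 2826 in homozygous basal repeat 2. In pieces of whole tissue, fewer cells of a type and less RNA per cell cannot be told apart.

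All 10 genes were detected in every library, but at quite different levels. By the median over the 12 libraries the order was Lyz2 (70.8 scaled FPKM), C1qa (31.9), C1qb (31.2), C1qc (29.96), Csf1r (14.3), Cd68 (7.66), Mrc1 (7.65), Cx3cr1 (6.62), Trem2 (5.11) and Adgre1 (4.59). Lyz2 was above C1qa, and C1qc above Csf1r, in 12 of 12 libraries, and Csf1r was above Cd68 in 11 of 12. Neighbours lower in this order changed places: Cd68 exceeded Mrc1 in 5 of 12 libraries and Mrc1 exceeded Cx3cr1 in 7 of 12. Within the C1q genes the medians lay closer together than the spread between repeats. Every one of the 10 genes had its lowest value in wild-type apical repeat 2, and 8 of the 10 had their highest in wild-type basal repeat 2.

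Of the receptors that define the lineage, Csf1r was the most abundant. In the wild-type it was at 10.4 and 8.14 scaled FPKM in the apical turn, 22.6 and 14.02 in the middle turn and 20.4 and 17.6 in the basal turn, and in the homozygous mice at 13.6 and 13.4, 19.96 and 12.9, and 14.5 and 21.6. The wild-type apical pair lay below all other libraries. Cx3cr1, the fractalkine receptor, was at 6.43 and 4.96 (apical), 13.4 and 6.81 (middle) and 6.99 and 8.08 (basal) in the wild-type and at 6.13 and 5.02, 5.90 and 6.40, and 7.75 and 11.1 in the homozygous mice. Its highest value belonged to wild-type middle repeat 1, the library in which Csf1r was also highest. Adgre1, which encodes the F4/80 antigen, was at 2.79 and 2.34, 4.97 and 3.70, and 4.19 and 10.6 in the wild-type and at 4.66 and 5.36, 8.24 and 4.52, and 3.10 and 5.34 in the homozygous mice, for the same order of turns. The values of 10.6 and 8.24 came from the 2 libraries with the high neutrophil sums.

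The genes for the C1q chains lie side by side on the minus strand of chromosome 4 (GRCm38, GENCODE): C1qb at chr4:136880129-136886187, C1qc at chr4:136889804-136893065 and C1qa at chr4:136895917-136898803, with gaps of 3616 and 2851 bp, and no exon of another gene overlaps them. C1qa was at 14.99 and 11.7 scaled FPKM (apical), 45.1 and 28.4 (middle) and 43.2 and 50.7 (basal) in the wild-type, and at 24.8 and 33.7, 47.7 and 30.2, and 27.9 and 46.6 in the homozygous mice. C1qb was at 13.7 and 11.6, 42.3 and 27.0, and 38.5 and 62.3 in the wild-type and at 22.9 and 33.2, 49.1 and 29.2, and 27.6 and 47.9 in the homozygous mice. C1qc was at 16.2 and 13.1, 37.4 and 25.0, and 34.2 and 56.1 in the wild-type and at 22.6 and 31.8, 42.1 and 28.1, and 25.0 and 41.6 in the homozygous mice. The sum of the chains ran from 36.3 to 169 scaled FPKM across the 12 libraries, while C1qa over C1qb was 0.814 to 1.12 and C1qc over C1qb 0.858 to 1.18. These ratios were not the same at every level: C1qc over C1qb was highest, at 1.18 and 1.13, in the wild-type apical pair, where the sum was lowest, and C1qa over C1qb was lowest, at 0.814, in wild-type basal repeat 2, where the sum was highest. Across the 12 libraries, which differ in genotype, turn and tissue content, Pearson's r of the log2 levels was 0.988 for C1qa with C1qb, 0.975 for C1qa with C1qc and 0.995 for C1qb with C1qc.

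RefSeq (GRCm38.p6) promoter windows, the 250 bases before the start, were at hand for 7 of the 10 genes and not for Csf1r, Adgre1 and C1qa. They were searched on both strands for GAGGAA, the core of the purine box bound by PU.1, the factor encoded by Spi1 that sets up the macrophage lineage. In all, 5 of the 7 windows (C1qb, C1qc, Cd68, Mrc1 and Trem2) hold it, against 23.3% of 32851 windows of all genes, and those of Cx3cr1 and Lyz2 do not. The composite element of ETS and IRF factors, searched in the same way, is in 0 of the 7 windows and in 2.3% of all windows. Where a window holds the purine box, 30 bases around the match nearest the start are shown on the strand of the gene, with the match in capitals; TTCCTC is GAGGAA read on the other strand. A match of these letters is a description and not a bound site.
C1qb (chr4:136886213-136886242, minus strand): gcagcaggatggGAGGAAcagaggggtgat
C1qc (chr4:136893090-136893119, minus strand): gacggcagacacTTCCTCattttggcacac
Cd68 (chr11:69666378-69666407, minus strand): tttcttaccaatGAGGAAagggcttcccat
Mrc1 (chr2:14229367-14229396, plus strand): aaaagggacagcTTCCTCtgtcctcctttt
Trem2 (chr17:48346349-48346378, plus strand): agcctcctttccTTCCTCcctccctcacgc
C1qb and C1qc, whose levels moved together across the libraries, hold these letters on opposite strands.

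Mrc1, the mannose receptor CD206 of perivascular-type macrophages, was the most even of the genes between wild-type repeats. It was at 4.85 and 4.69 scaled FPKM (apical), 8.33 and 8.33 (middle) and 12.1 and 12.4 (basal) in the wild-type, and at 6.65 and 6.97, 11.4 and 6.84, and 4.91 and 9.85 in the homozygous mice. The 3 wild-type turns did not overlap, while the homozygous basal pair lay on both sides of the homozygous apical pair. Trem2, a lipid-sensing receptor of phagocytes, was at 3.09 and 2.74, 8.34 and 4.96, and 4.72 and 37.4 in the wild-type and at 4.74 and 5.12, 5.10 and 5.34, and 5.13 and 7.35 in the homozygous mice. Its value of 37.4 in wild-type basal repeat 2 was 4.48 times the highest among the 10 libraries other than that one and homozygous middle repeat 1, which itself was at 5.10.

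Cd68, a lysosomal membrane glycoprotein, was at 4.31 and 3.84 scaled FPKM (apical), 7.55 and 5.32 (middle) and 6.998 and 42.2 (basal) in the wild-type, and at 7.80 and 8.25, 18.8 and 6.32, and 7.77 and 8.21 in the homozygous mice. Leaving out the values of 42.2 and 18.8, it spanned 3.84 to 8.25. Lyz2, the lysozyme of macrophages, monocytes and neutrophils, was at 67.6 and 26.9, 48.8 and 68.9, and 87.1 and 462 in the wild-type and at 44.3 and 89.2, 455 and 77.4, and 49.15 and 72.7 in the homozygous mice. In wild-type basal repeat 2 and homozygous middle repeat 1 it was 5.18 and 5.10 times the highest of the other 10 libraries. Its near-identical neighbour Lyz1, with which reads can be shared, stayed at or under 3.18 scaled FPKM, its value in wild-type basal repeat 2.

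**Figure D1:**
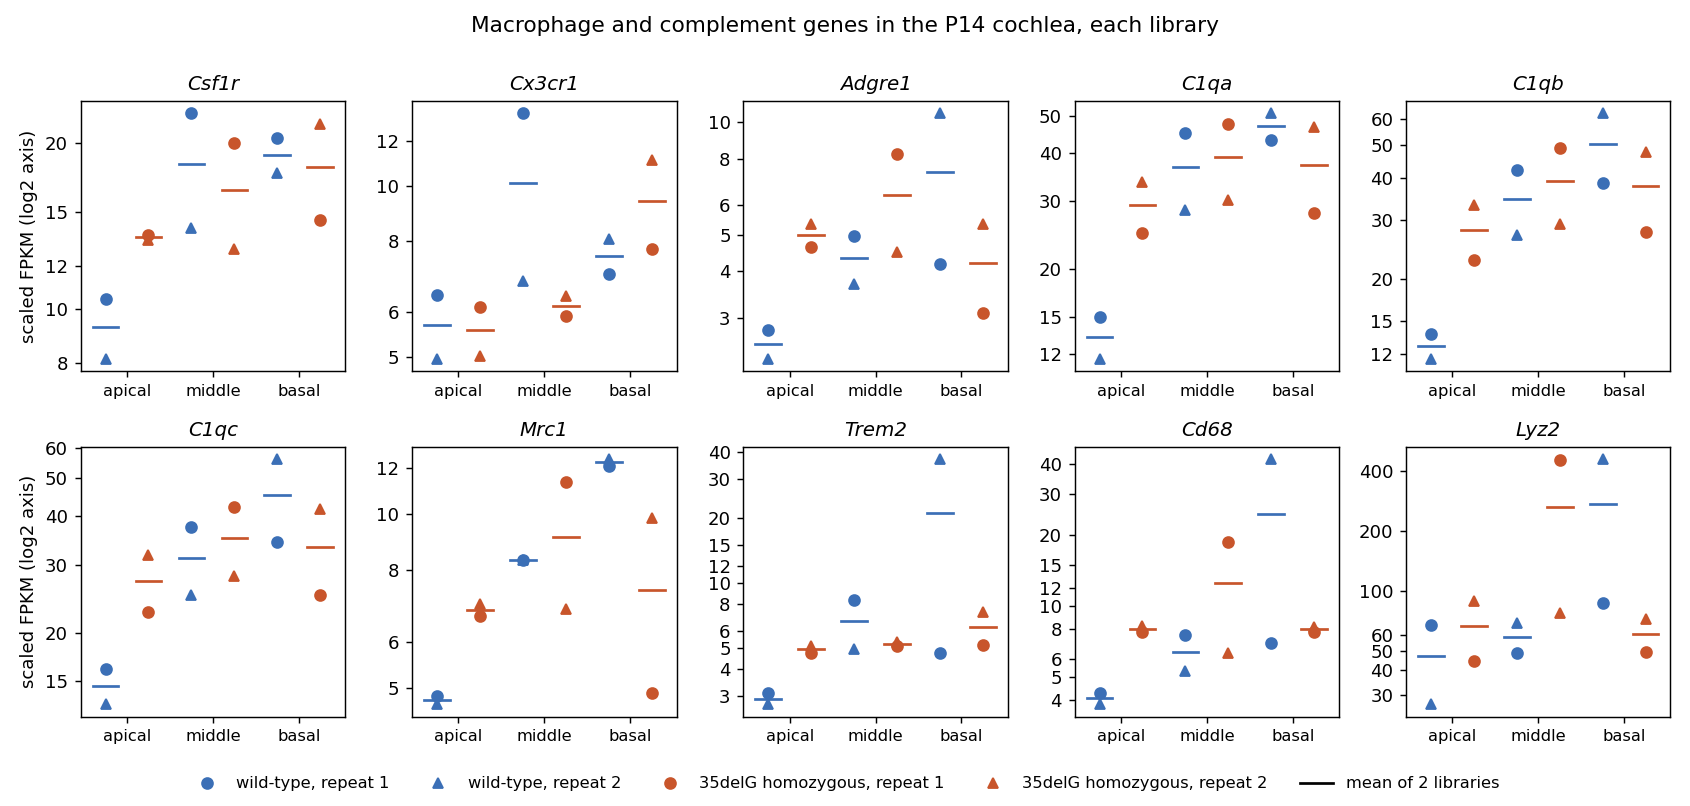
Scaled FPKM (log2 axis, a different range in each panel) of the 10 genes in every library, by turn; blue is wild-type, orange 35delG homozygous, circles are repeat 1, triangles repeat 2 and bars the mean of 2 libraries. The C1q chains show one shape, lowest in the wild-type apical turn, while wild-type basal repeat 2 is far above the other libraries for Trem2 and Cd68, and for Lyz2 (462) together with homozygous middle repeat 1 (455).

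In the wild-type cochlea the turns were compared first. All 10 genes were higher in the basal than in the apical turn, with no overlap between the libraries in any of them, while 25.2% of all genes tested were separated in that direction. The median log2 difference was 1.64, against -0.03 over all genes. The smallest p-values were those of the C1q chains and Mrc1: C1qa was higher by 1.75 on the log2 scale (SE 0.33, 95% interval 0.998 to 2.498, limma adjusted p = 0.0503), C1qb by 1.88 (SE 0.38, adjusted p = 0.0573), C1qc by 1.53 (SE 0.35, adjusted p = 0.0795) and Mrc1 by 1.20 (SE 0.29, adjusted p = 0.0858). None of the 10 was called. Of all genes tested 0.0863% were called here, and 9 of the 10 had an unadjusted p under 0.05, against 20.3% of all genes. Lyz2, Trem2, Cd68 and Adgre1 had differences of 2.21, 1.92, 1.88 and 1.12. Without wild-type basal repeat 2, which leaves repeat 1 alone to stand for the turn, these came down to 1.01, 0.55, 0.66 and 0.54. The median of the 10 came down to 1.03. C1qa was then at 1.63 instead of 1.75 and C1qb at 1.54 instead of 1.88. C1qc was at 1.18 instead of 1.53 and Mrc1 at 1.18 instead of 1.20. Without wild-type basal repeat 1, which leaves repeat 2 alone to stand for the turn, Trem2 was at 3.29. Other tissue differed between these turns too. Summed erythroid markers were 493 and 232 scaled FPKM in the wild-type apical and 3175 and 4992 in the wild-type basal libraries, osteoblast markers 48.4 and 108 against 295 and 2773, neutrophil markers 281 and 35.9 against 428 and 2055, and hair cell markers 560 and 550 against 126 and 118. Their part in the difference between turns was not tested.

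The step from the apical to the middle turn of the wild-type was of the same sign for all 10 genes and without overlap for 9, against 30.8% of all genes, with Lyz2 the exception. The median was 0.79. C1qa was higher by 1.37 (SE 0.33, limma adjusted p = 0.112), C1qb by 1.36 (SE 0.38, adjusted p = 0.145), C1qc by 1.02 (SE 0.35, adjusted p = 0.191) and Csf1r by 0.88 (SE 0.29, adjusted p = 0.181). None was called, while 0.0863% of all genes were. Between the middle and basal turns the median was 0.52, 2 of the 10 were separated (21.9% of all genes were in that direction), namely Mrc1 and Lyz2, and the lowest adjusted p was 0.405. In that comparison limma called 0 of all genes, and 2472 had an unadjusted p under 0.05.

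In the homozygous cochlea the same comparison of basal with apical turn gave a median of 0.26. Csf1r (0.37, 95% interval -0.28 to 1.02), Cx3cr1 (0.65, interval -0.0046 to 1.31) and Trem2 (0.27, interval -1.30 to 1.85) did not overlap between those turns, 3 of 10, where 29% of all genes were separated upward. The C1q chains overlapped, with differences of 0.31 (C1qa), 0.39 (C1qb) and 0.26 (C1qc). No gene of the 10 was called, while 4.06% of all genes were. Between the homozygous middle and apical turns no gene was separated (12.6% of all genes were, upward), all 10 differences were positive with a median of 0.34, and limma called 0 of all genes, 429 having an unadjusted p under 0.05. Between its basal and middle turns, where 4.66% of all genes were called, none of the 10 was, and the median was -0.08. There Cx3cr1 was separated upward, as 28.1% of all genes were, and Lyz2 downward, as 33.2% were.

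The genotypes were then compared within each turn. Pieces with the same turn label differed in content: from the apical to the middle turn all 7 Schwann cell and myelin markers were higher in the wild-type and lower in the homozygous mice, and from the middle to the basal turn these were lower and the 7 hair cell markers higher in the wild-type, both the reverse in the homozygous mice. Genotype and the tissue content of the pieces cannot be told apart in these differences. In the apical turn, 9 of the 10 genes had a higher mean in the homozygous mice and 8 were separated, with both homozygous libraries above both wild-type ones, against 26.9% of all genes. Cx3cr1 and Lyz2 overlapped. The median log2 difference was 0.68, against -0.03 over all genes tested. C1qa had the lowest p-value: its mean was 29.2 scaled FPKM in the homozygous and 13.3 in the wild-type apical libraries, a log2 difference of 1.07 (SE 0.33, 95% interval 0.32 to 1.82, limma adjusted p = 0.169). C1qb differed by 1.07 (SE 0.38, interval 0.21 to 1.93, adjusted p = 0.213) and C1qc by 0.84 (SE 0.35, interval 0.04 to 1.64, adjusted p = 0.284). These 3 of the 10 had an unadjusted p under 0.05, as did 16.4% of all genes. Adgre1 (0.76), Cd68 (0.83), Trem2 (0.60), Csf1r (0.50) and Mrc1 (0.44) were separated with adjusted p-values of 0.387 to 0.728. None of the 10 was called, in a comparison that called 0.179% of all genes. Markers of other cells moved in the same turn: the summed osteoblast markers of the homozygous pair (269 and 592 scaled FPKM) exceeded those of the wild-type pair (48.4 and 108). The hair cell markers were 341 and 303 against 560 and 550, and the neuron markers 142 and 288 against 497 and 720. Schwann cell and myelin markers were 1615 and 2153 against 2590 and 2768. Their part in the difference was not tested.

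In the middle turn the same genes showed no common direction. The median was 0.12, with 7 genes higher and 3 lower in the homozygous mice, and the differences of the C1q chains were 0.08 (C1qa, 95% interval -0.67 to 0.83), 0.16 (C1qb, interval -0.70 to 1.02) and 0.16 (C1qc, interval -0.63 to 0.96). Lyz2 was separated upward (1.68, SE 0.94, limma adjusted p = 0.305), where 31.3% of all genes were, and Cx3cr1 downward (-0.57, SE 0.29, adjusted p = 0.254), where 28.2% were. None was called, against 0.179% of all genes. Leaving out both libraries that stood apart gave a median of -0.22 with 8 genes lower. Without homozygous middle repeat 1 alone, Lyz2 stood at 0.41 and Cd68 at -0.01 instead of 0.71, and the C1q chains and Mrc1 turned negative, to between -0.25 and -0.12.

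In the basal turn 9 of the 10 genes had a lower mean in the homozygous mice, with a median of -0.52 against -0.02 over all genes, and 2 were separated, where 27.8% of all genes were separated downward. These were Mrc1, at 7.38 against 12.3 scaled FPKM (-0.73, SE 0.29, 95% interval -1.38 to -0.07, limma adjusted p = 0.117), and Lyz2, at 60.9 against 275 (-1.73, SE 0.94, interval -3.88 to 0.41, adjusted p = 0.246). None was called, although 4.29% of all genes were. Without wild-type basal repeat 2, 7 of the 10 were lower and the median was -0.08. Trem2 and Cd68, both at -1.05, then became 0.32 and 0.17, and Lyz2 stood at -0.54 and Adgre1 at -0.02 instead of -0.60. Without the other wild-type basal library Trem2 was at -2.43. Either omission leaves 1 library in that group, so its spread is not measured. Mrc1 was at -0.71 without wild-type basal repeat 2 and homozygous middle repeat 1. With 1 library left out at a time it ran from -1.16 to -0.29. Averaged over the turns, no gene differed by more than 0.27 in either direction, the adjusted p-values were 0.525 to 0.916, and none was called where 0.376% of all genes were. The basal pieces differed in other tissue as well, wild-type against homozygous: summed erythroid markers were 3175 and 4992 against 435 and 523 scaled FPKM, neuron markers 9.30 and 709 against 2198 and 2826, Schwann cell and myelin markers 1412 and 5640 against 9390 and 14873, and hair cell markers 126 and 118 against 31.8 and 21.3. Whether they bear on the macrophage genes was not tested.

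**Figure D2:**
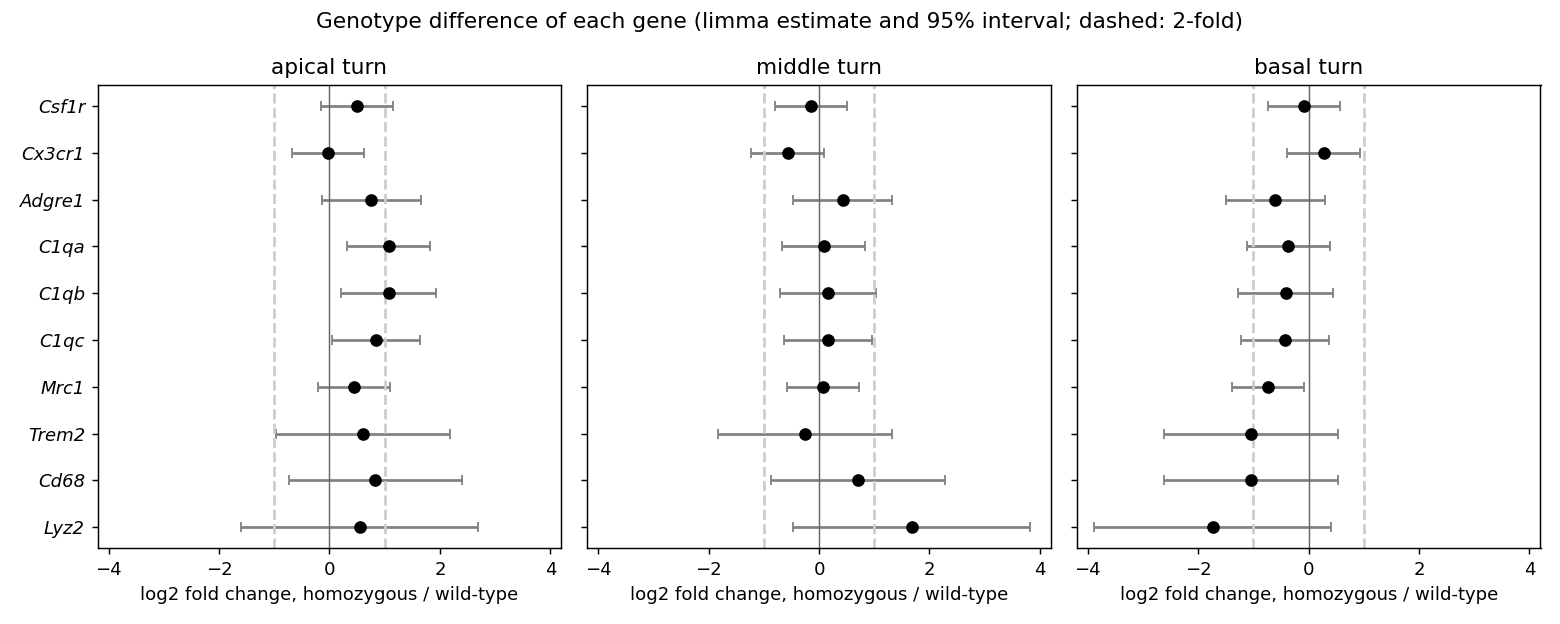
Log2 fold change (homozygous over wild-type, horizontal axis) of each gene in each turn, with the limma estimate as a point and its 95% interval as a bar; dashed lines mark a 2-fold change. The intervals of the 3 C1q chains lie above 0 in the apical turn and span 0 in the other turns, and those of Trem2, Cd68 and Lyz2 are the widest.

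Whether the genotype difference itself depended on the turn was tested as a contrast of differences. From the apical to the basal turn it moved down for 9 of the 10 genes, with a median of -1.40 against -0.01 over all genes. C1qa moved by -1.44 (SE 0.47, 95% interval -2.50 to -0.37, limma adjusted p = 0.0793), C1qb by -1.49 (adjusted p = 0.105), C1qc by -1.27 (adjusted p = 0.13), Mrc1 by -1.17 (adjusted p = 0.0962) and Adgre1 by -1.36 (adjusted p = 0.15). These 5 had an unadjusted p under 0.05, as did 28.4% of all genes, and none was called, while 0.796% of all genes were. Markers of other cells moved in the same contrast. All 7 neuron markers (median 5.75) and all 7 Schwann cell and myelin markers (3.10) moved up. All 6 erythroid markers (median -3.54) and all 9 neutrophil markers (-3.00) moved down. Genotype and the tissue content of the pieces cannot be told apart here, and the part of these tissues was not tested. Without wild-type basal repeat 2, C1qa was at -1.32 (adjusted p = 0.132) and Mrc1 at -1.15 (adjusted p = 0.139), Adgre1 at -0.78 and Trem2 at -0.28 instead of -1.65. From the middle to the basal turn Lyz2 moved by -3.41 (adjusted p = 0.0982) and none was called (8.91% of all genes were). Without wild-type basal repeat 1, where repeat 2 alone stands for the wild-type basal turn, Trem2 moved by -2.17. From the apical to the middle turn limma called 0 of all genes, with 1306 at an unadjusted p under 0.05, and the 10 genes had adjusted p-values of 0.635 to 0.975.

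Each gene was also set against Csf1r in the same library. The summed C1q chains were 4.30 to 9.61 times Csf1r. They were 4.30 and 4.46 times Csf1r in the wild-type apical turn and 5.15 and 7.39 times in the homozygous apical turn. Trem2 over Csf1r was 0.232 to 0.415 in 11 libraries and 2.12 in wild-type basal repeat 2, and Cd68 over Csf1r was 0.334 to 0.618 in 10 libraries, 0.942 in homozygous middle repeat 1 and 2.40 in wild-type basal repeat 2. Lyz2 over Csf1r was 2.16 to 6.68 in 10 libraries, 22.8 in homozygous middle repeat 1 and 26.3 in wild-type basal repeat 2. Thus Lyz2 was high in both of these libraries and Trem2 in 1 of them. Over the 12 libraries Pearson's r of the log2 levels of Trem2 with Csf1r was 0.49, and 0.88 over the 10 libraries without those 2.

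**Figure D3:**
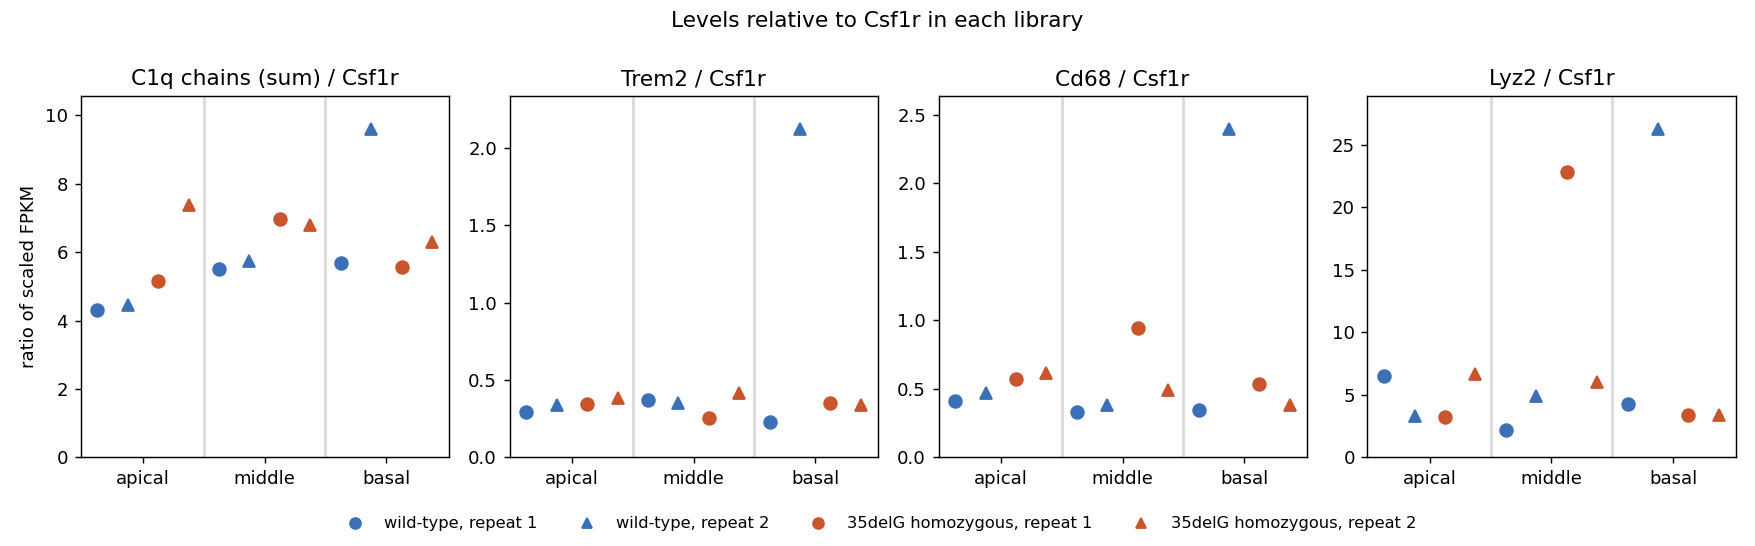
Ratio of scaled FPKM to that of Csf1r in each library (vertical axis, from 0), by turn, for the summed C1q chains, Trem2, Cd68 and Lyz2; colours and symbols are those of genotype and repeat. Wild-type basal repeat 2 is highest in all 4 panels, at 2.12 for Trem2 and 26.3 for Lyz2, and homozygous middle repeat 1 reaches 22.8 for Lyz2 but 0.256 for Trem2.

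The same 2 libraries were high for markers of other blood and bone cells. All 9 neutrophil genes tested, all 4 monocyte genes and all 6 B cell genes had their highest value in homozygous middle repeat 1. The summed monocyte markers were 290 scaled FPKM there and 96.6 in wild-type basal repeat 2, against 1.73 to 35.3 in the other libraries, and the osteoclast markers 398 and 92.8 against 9.27 to 43.4. Perivascular-type macrophage markers summed to 160 in wild-type basal repeat 2 and 99.6 in homozygous middle repeat 1, against 17.8 to 52.8 in the other 10, and pan-macrophage markers to 264 and 254, against 64.3 to 123. Gene by gene, 4 of 13 pan-macrophage markers were highest in wild-type basal repeat 2 and 8 of 13 in homozygous middle repeat 1, and of the perivascular-type markers 4 of 9 and 3 of 9. Microglia markers summed to 154 and 126 in these libraries, against 67.6 to 130 in the rest. The T cell genes Cd3d, Cd3e and Cd3g stayed at or under 0.61 in every library, and so did the resident macrophage gene Timd4, at or under 0.33. The summed T cell markers, though low, were also highest in these libraries. They were 4.58 in homozygous middle repeat 1 and 3.49 in wild-type basal repeat 2, against 0.585 to 2.06 in the other 10. The part of these cells in the Lyz2, Trem2 and Cd68 values was not tested.

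**Figure D4:**
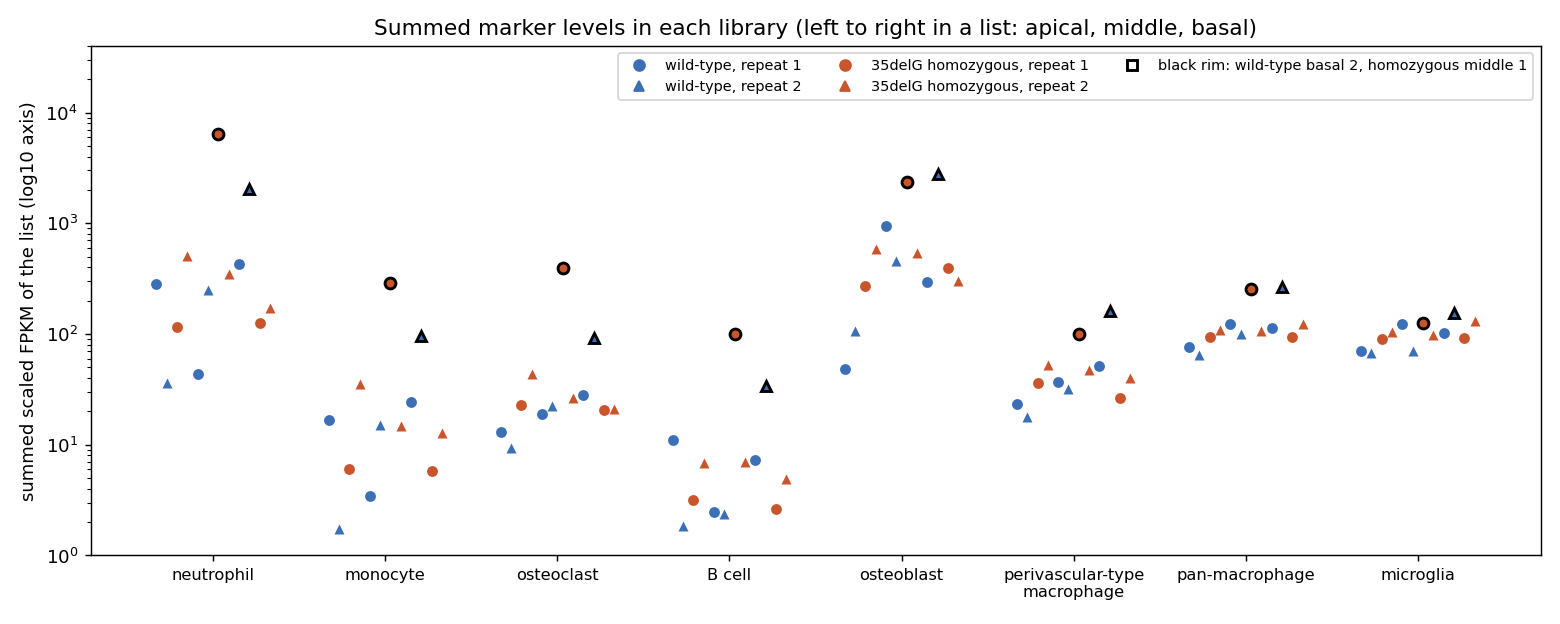
Summed scaled FPKM (log10 axis) of marker lists for blood, bone and macrophage cells in each library, ordered within a list from apical to basal turn; black rims mark wild-type basal repeat 2 and homozygous middle repeat 1. Those 2 libraries lie above the other 10 for neutrophil (2055 and 6403), monocyte, osteoclast, B cell, osteoblast, pan-macrophage and perivascular-type macrophage lists, and in the microglia list homozygous middle repeat 1 does not.

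Beyond C1q, 41 complement genes were listed, of which 24 were tested. No list had a call for the genotype in any turn (0 of 24 in each). Of all genes, 4.29% were called for the genotype at the base and 0.179% at either other turn. With 24 genes, 0 calls cannot be told apart from these shares. The median difference of the 24 was 0.16 at the apex, 0.46 for the middle turn and -0.50 for the base, and without wild-type basal repeat 2 and homozygous middle repeat 1 the last 2 were 0.17 and -0.20. Among initiating genes the most abundant were Colec12, a scavenger collectin (12.4 to 31.4 scaled FPKM), C2, the serine protease of the classical convertase (3.68 to 29.5), and C1s1, the C1 protease subunit (1.96 to 18.7). C3, the central component, ran from 0.15 to 14.1 and properdin (Cfp) from 2.29 to 15.6, both highest in homozygous middle repeat 1. Among the regulators, clusterin (Clu), at 346 to 3691, was the most abundant and the C1 inhibitor Serping1 was at 30.2 to 93.6, whereas Cfi for factor I (0.083 to 4.09) and Cd46 (1.67 to 4.28) stayed low. Of the terminal pathway, C6, C7, C8b and C9 were at or under 0.79 in every library, as were the C3b receptor gene Vsig4, the gene Hc for C5 and Cfd for factor D.

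C2 and Cd59a were the complement genes whose genotype difference changed between the middle and basal turns with a call, 2 of the 24 tested, where 8.91% of all genes were called. The complement share was thus no larger than that over all genes. C2 was at 7.60 and 9.39 in the wild-type middle, 17.9 and 24.5 in the homozygous middle, 19.0 and 11.2 in the wild-type basal and 3.68 and 7.10 scaled FPKM in the homozygous basal libraries. It was thus higher in the homozygous middle turn and lower in the homozygous basal turn without overlap, and the difference moved by -2.56 (SE 0.44, limma adjusted p = 0.0053). C2 also fell from the homozygous apical (29.5 and 23.6) to the basal turn by 2.15 on the log2 scale (adjusted p = 0.0057) and from the middle to the basal turn by 1.83 (adjusted p = 0.0076), comparisons that called 4.06% and 4.66% of all genes and 1 of the 24 each. Cd59a, an inhibitor of the membrane attack complex, ran the other way, at 45.5 and 50.2 in the wild-type middle, 17.0 and 24.7 in the homozygous middle, 27.7 and 31.3 in the wild-type basal and 42.4 and 50.9 in the homozygous basal libraries (1.82, SE 0.32, adjusted p = 0.0054). With 1 library left out at a time the move kept its sign for both, between -2.94 and -2.16 for C2 and between 1.57 and 2.08 for Cd59a, and its call in 2 and 4 of 12 cases. Other tissue moved with these genes: 4 of the 7 hair cell markers and 4 of the 7 Schwann cell and myelin markers were called in the same contrast. The summed hair cell markers were 51.9 and 104 in the wild-type middle, 229.5 and 403 in the homozygous middle, 126 and 118 in the wild-type basal and 31.8 and 21.3 in the homozygous basal libraries. Schwann cell and myelin markers summed to 20051 and 5746, 804 and 764, 1412 and 5640, and 9390 and 14873 in that order, and their part was not tested.

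The ligands of the lineage receptors were measured too. Il34, the CSF1R ligand made by keratinocytes and neurons, was at 9.30 and 7.35 (apical), 7.503 and 8.71 (middle) and 11.2 and 7.48 scaled FPKM (basal) in the wild-type, and at 16.9 and 17.0, 12.1 and 13.4, and 11.6 and 16.8 in the homozygous mice. Every homozygous library lay above every wild-type one, which was so for 0.808% of all genes. The difference averaged over the turns was 0.70 on the log2 scale (SE 0.13, limma adjusted p = 0.0329), a fold under 2, and the gene was not called. The estimate was 0.61 to 0.79 with 1 library left out at a time (adjusted p = 0.0186 to 0.121). Csf1, the other CSF1R ligand gene, was at 1.65 to 11.7, highest in wild-type middle repeat 1, with no such separation (0.55, SE 0.34, adjusted p = 0.444). Cx3cl1, the ligand of CX3CR1, was at 12.6 to 30.5, also overlapping. Maf, a macrophage transcription factor that other cells also use, was the most abundant of that list at 15.8 to 55.9.

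The 5 lists for macrophages (the CSF1R axis, pan-macrophage, perivascular-type, microglia and TREM2-TYROBP genes) held 55 genes, 54 of them tested. For the genotype 0 of the 54 were called in any turn, while 4.29% of all genes were at the base and 0.179% at either other turn. From apical to basal turn in the wild-type, 48 of the 54 differences were positive with a median of 0.93, against 47.7% of all genes. There were 0 calls among the 54, where 0.0863% of all genes were called. Without wild-type basal repeat 2, 44 were positive with a median of 0.55, against 45.7% of all genes. The genotype differences of the 54 had medians of 0.35 at the apex, 0.45 for the middle turn and -0.53 for the base. Of the 54, 41 were higher in the homozygous apical libraries (47% of all genes were), 39 in the middle ones (53.4%) and 14 in the basal ones (48.3%). The last 2 counts changed without the libraries that stood apart: 25 of the 54 were higher in the homozygous basal turn without wild-type basal repeat 2 (median -0.16), and 29 in the middle turn without that library and homozygous middle repeat 1 (median 0.08). Among the 13 pan-macrophage genes 11 were higher in the homozygous mice at the apex, 11 for the middle turn and 1 at the base (6 without wild-type basal repeat 2), and the summed level of wild-type basal repeat 1 (112.5) lay between those of the homozygous basal pair (94.3 and 123). Of the 9 perivascular-type genes it was 7, 7 and 0 (2 without that library), and of the 8 microglia genes 6, 4 and 5 (6 without it). Abundant genes of the TREM2-TYROBP list were Spp1 (855 to 2807 scaled FPKM), Apoe (694 to 1627) and Ctsd (259 to 531). In pieces of whole tissue these need not come from macrophages, and their source was not tested.

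The genes whose log2 levels ran most like the mean of the 10 were sought among the 9456 genes whose mean reached 5 scaled FPKM, by Pearson's r over the 12 libraries. They were Ctss (0.979), Tyrobp (0.948), Ly86 (0.939), Aldh3b1 (0.936), Smarce1 (0.930), Gng11 (0.926), Gpx7 (0.926) and Nudcd2 (0.924). Ctss and Tyrobp are also on the macrophage lists above. The mean of the 10 was highest in wild-type basal repeat 2 and homozygous middle repeat 1, and r without these libraries was not computed. Ctss, a lysosomal protease of antigen-presenting cells, was at 14.1 to 110 scaled FPKM, and Tyrobp, the adaptor of TREM2, at 9.28 to 124, with 124 in wild-type basal repeat 2 and 111 in homozygous middle repeat 1. Smarce1, a chromatin remodelling subunit present in all cells, spanned 18.1 to 25.8.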

How the data were processed

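The study compared RNA-seq libraries of P14 cochlear turns. RNA was extracted with the miRNeasy Micro Kit, libraries were made with a VAHTS Universal V8 kit and sequenced as paired ends on a NovaSeq. The authors trimmed reads with fastp (0.20.0), aligned them to mm10 with STAR (2.7.3a), kept unique reads, counted them with featureCounts (2.0.0) and ran DESeq2 on the counts, a test that needs counts and is replaced here. The deposited values are FPKM that the authors calculated with StringTie (2.0), 37432 genes in 12 libraries. Strand use in counting is not given in the sources used here, so in the reference annotation Csf1r cannot be told apart from Hmgxb3, nor Cx3cr1 from Gm33858, where exons overlap on opposite strands. The values show no whole-read steps, so depth is unknown and precision is that of the repeats. All 12 sample columns were used.

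Libraries were scaled to each other by the median of ratios, taken over the 11552 genes that reach 1 FPKM in every library. The 16215 genes reaching 1 FPKM in at least 2 libraries entered limma 3.58.1, run in R 4.3.3, as log2(scaled FPKM + 1), with 6 group means, eBayes with a trend, two-sided, Benjamini-Hochberg over all of them. The thresholds (adjusted p under 0.01, fold over 2) are those of the study. The script was tested on simulated data. Intervals cover 95%. All 10 identifiers match GENCODE with their version, and 8 with the same coordinates.

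The 10 genes and the 20 lists (164 genes, 3 of them not in the table under that name) were chosen with earlier results of these data known. The text names the 10 genes, list genes called for the genotype, the 3 most abundant genes of each complement and macrophage list (some are not reported here), the 8 genes of most similar pattern, and defining markers near 0. Alternatives were other pseudocounts, filters, scalings, library weights, groups of libraries, replicate blocks and thresholds, and leaving out each library. Leaving out wild-type basal repeat 2 and homozygous middle repeat 1 together, and recounting the lists without the first or both, was chosen after seeing the data.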

Additional observations from a re-analysis of the deposited data

Results flagged for a closer look

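The genotype difference of C2, homozygous minus wild-type, was 1.22 on the log2 scale in the middle turn and -1.35 in the basal turn, and the test of the difference between turns gave -2.56 (limma adjusted p = 0.0053). For Cd59a it was -1.18 and 0.64, with a move of 1.82 (adjusted p = 0.0054). These were 2 of the 24 complement genes tested, a share no larger than the 8.91% of all genes called in that comparison. With 1 library left out at a time the move was -2.94 to -2.16 for C2 and 1.57 to 2.08 for Cd59a, and neither was called in most cases. Leaving out wild-type basal repeat 2 and homozygous middle repeat 1 together, a choice made after seeing the data, gave -3.13 for C2 and 1.65 for Cd59a. The genotype difference of the hair cell and Schwann cell markers also reversed between these turns, and its part was not tested. No such move was called for any of the 10 macrophage and C1q genes with all libraries.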

How the results depend on the processing

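The number of the 10 genes called was 0 in all 13 comparisons with all libraries, and it stayed at 0 under every alternative but one. With 1 library left out at a time it was 0 to 1 for the basal genotype difference, for the change of that difference from middle to basal turn and for wild-type basal against apical. The 1 was Trem2 without wild-type basal repeat 1 (basal genotype difference -2.43), a fit in which repeat 2 alone stands for that group. No spread between wild-type basal libraries enters it. Of the log2 differences within turns, 631 alternative values kept their sign and stayed uncalled and 28 changed sign, none of them called. On FPKM as deposited Cx3cr1 was at 0.0032 (apical) and Csf1r at 0.019 (middle), and after quantile normalization Cx3cr1 was at 0.053 (apical).

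With 1 library left out at a time the ranges that crossed 0 were, in the apical turn, Cx3cr1 -0.18 to 0.14 and Lyz2 -0.10 to 1.20. In the middle turn they were Csf1r -0.47 to 0.18, C1qa -0.24 to 0.40, C1qb -0.20 to 0.53, C1qc -0.12 to 0.45, Mrc1 -0.25 to 0.40, Trem2 -0.59 to 0.060 and Cd68 -0.0064 to 1.43. In the basal turn they were Csf1r -0.35 to 0.19, Trem2 -2.43 to 0.32 and Cd68 -2.27 to 0.17. Leaving out wild-type basal repeat 2 and homozygous middle repeat 1 together gave, in the middle turn, C1qa -0.24, C1qb -0.20, C1qc -0.12, Mrc1 -0.25 and Cd68 -0.0073, and in the basal turn Trem2 0.32 and Cd68 0.17. The cause was not tested.

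Whether the repeat number pairs the turns of a genotype is not given in the sources used here. Deviations of same-numbered libraries from their group means correlated between -0.41 and 0.27 for turns of the same genotype. Between genotypes, where no animal can be shared, they ran from -0.43 to 0.45. With 2 libraries a group, some of unlike tissue content, these values cannot decide it. With a replicate block, as a fixed term or as a random block, 0 of the 10 genes were called in each comparison. With 2 libraries a group and unknown depth, changes under 2-fold were mostly within the intervals.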
